A study of Mus musculus with 2 samples.

Results

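The G2M-phase cells of mouse dysplastic gastric organoids were those rich in transcripts of late cell cycle genes. A cell was counted among them when its counts of 53 marker genes made up at least 40 per 10000 of its counts. The rule found 593 cells of 2456, namely 485 of 1602 in the DMSO library and 108 of 854 in the pyrvinium library. Both libraries were made from Meta4 organoids, a dysplastic line grown from stomach corpus, and carried Mist1-CreERT2Tg/+ together with LSL-K-ras(G12D)Tg/+. In such animals a drug-inducible Cre recombinase, driven by the chief cell gene Mist1, can switch on a mutant K-ras. Both samples carry the label of dysplasia induction and differ only in the agent, which was pyrvinium, a drug used against worms, or its solvent DMSO, each for 1 day. The series asked which populations of the organoids the drug affects before their shape is disrupted.

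In G2 a cell that has copied its DNA prepares to divide, and in M phase it condenses its chromosomes, attaches them to a spindle and splits. Cyclin B with Cdk1 and the kinase Plk1 drive entry into mitosis, and the anaphase-promoting complex with Cdc20 ends it by marking cyclins for destruction. The genes of G2 and M are switched on together late in the cycle, largely through Foxm1, B-Myb and the MuvB complex at CHR elements and through NF-Y at CCAAT boxes. The stomach epithelium is renewed by dividing stem and progenitor cells, and dysplastic glands hold many dividing cells.

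There was 1 library per treatment, of 1 organoid line, so no value has a replicate check, no test was possible and 95% intervals cover counting error only. The agent and the library cannot be told apart. Cells had a median of 18592.5 counts and 3644 genes in the DMSO library and 31517 counts and 4687.5 genes in the pyrvinium library. The pyrvinium cells were fewer and deeper, and the number of cells depends on the minimum of 9320 and 13100 counts that defines them. The libraries shared 12981 of their barcodes but 0 barcodes of cells. In the text, a level is in counts per 1000000 (CPM) of the summed counts of a group of cells. A gene is called higher or lower when the sums differ by at least 1.5-fold with the whole interval on that side.

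The marker counts that chose the cells formed a continuous range with no gap at the threshold. In the DMSO library 64 cells lay between 35 and 40 per 10000 and 62 between 40 and 45, and in the pyrvinium library 21 and 21. The lowest G2M-phase cell stood at 40.07 and the highest other cell at 39.98 with DMSO, and at 40.13 and 39.86 with pyrvinium. The class is therefore a range of a score and not a cell type. The median was 63.0 per 10000 (quartiles 50.1 and 79.9) in the G2M-phase cells with DMSO and 58.8 (47.3 and 70.3) with pyrvinium, against 12.6 and 10.6 in the other cells. G2M-phase cells made up 30.3% of DMSO cells (exact binomial 95% interval 28.0 to 32.6) and 12.6% of pyrvinium cells (10.5 to 15.1). After each cell was thinned to 5000 counts the shares were 30.5% and 13.2%.

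**Figure D1:**
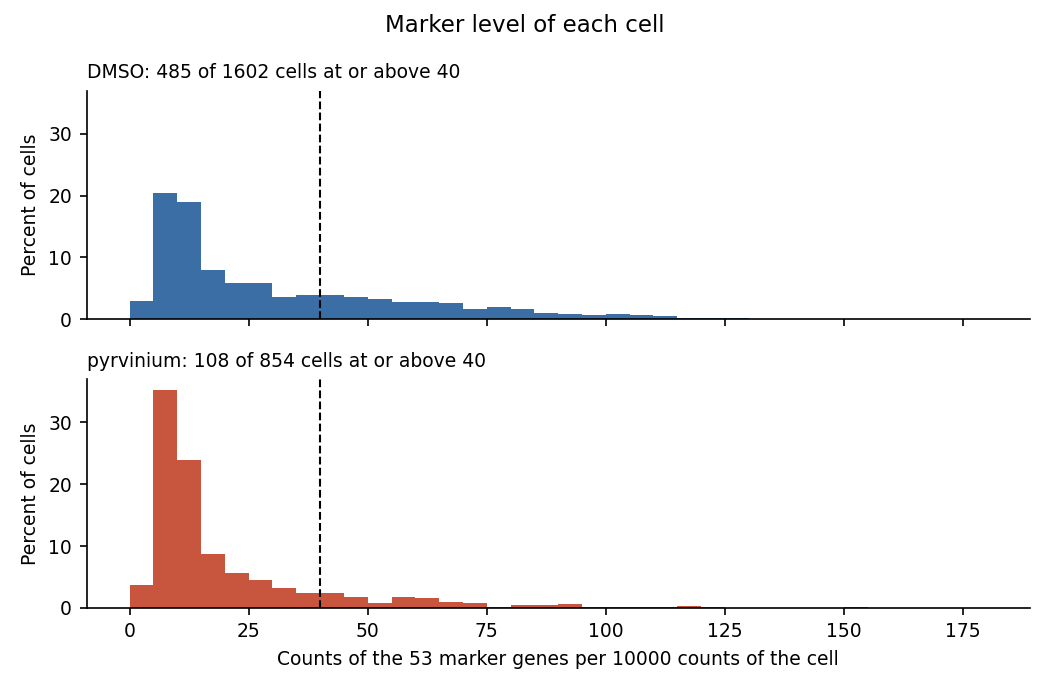
Histograms of the marker counts of each cell, in counts per 10000 (x axis), as percent of the cells of the DMSO library (top) and the pyrvinium library (bottom), with the threshold of 40 dashed. Both distributions run through the threshold without a gap, with 485 of 1602 DMSO cells and 108 of 854 pyrvinium cells at or above it.

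The markers themselves, which the rule used, are given as a description of the chosen cells. Cdc20, the activator of the anaphase-promoting complex, stood at 192 CPM in the G2M-phase cells and 20.8 in the other cells with DMSO, and at 184 and 20.7 with pyrvinium. Ube2c, the E2 enzyme of that complex, stood at 766 and 98.7 CPM with DMSO and at 846 and 132 with pyrvinium. The proliferation antigen Mki67 stood at 47.7 and 11.5 CPM with DMSO and at 51.2 and 9.16 with pyrvinium, and topoisomerase Top2a at 54.6 and 10.8 and at 60.7 and 9.44. Of the 53 markers, 52 were at least 1.5-fold higher in the G2M-phase cells with DMSO and 53 with pyrvinium. Selection on the 27 markers at odd places of the list at 20 per 10000 took 602 DMSO cells, among them all 485 G2M-phase cells, and 140 pyrvinium cells with 106 of the 108. Selection on the 26 at even places took 287 DMSO and 68 pyrvinium cells, all of them G2M-phase cells, and so left out the rest of the 485 and the 108. With the odd places used, the 26 other markers had a median of 19.5 per 10000 in the chosen DMSO cells and 4.69 in the rest, and 19.4 and 4.88 with pyrvinium. With the even places used, the 27 others stood at 47.3 and 8.95 with DMSO and at 39.4 and 6.05 with pyrvinium. The cells were chosen on these genes, so the values describe the choice and do not test the label.

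Among the genes outside the marker list, those that stood highest in the G2M-phase cells against the other DMSO cells included cyclins, kinases and spindle proteins of mitosis. This contrast follows from the way the cells were chosen, so its values describe them and support nothing more. Of 13936 genes tested, 951 were called higher (6.82%) and 1132 lower (8.12%) in the G2M-phase cells, and the median log2 ratio over all genes was -0.00. Ccnb1, the cyclin that activates Cdk1 for mitotic entry, stood at 112 CPM in G2M-phase and 13.7 in other DMSO cells, and at 108 and 10.5 with pyrvinium. That was 8.24-fold higher with DMSO (7.34 to 9.26) and 10.3-fold higher with pyrvinium (8.97 to 11.9). Fam83d, which anchors casein kinase 1 to the spindle, stood at 31.7 and 2.99 CPM with DMSO and 22.7 and 2.06 with pyrvinium. With a ratio of 10.6 (8.33 to 13.6) in the DMSO library it ranked first among genes of at least 20 CPM. Plk1, the kinase that drives centrosome maturation and mitotic exit, stood at 97.9 and 12.4 CPM with DMSO and 75.3 and 8.52 with pyrvinium. Ccna2, the cyclin of S phase and G2, stood at 77.6 and 16 CPM with DMSO and 72.2 and 9.75 with pyrvinium. In each of these genes both G2M-phase sums lay above both sums of other cells.

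**Figure D2:**
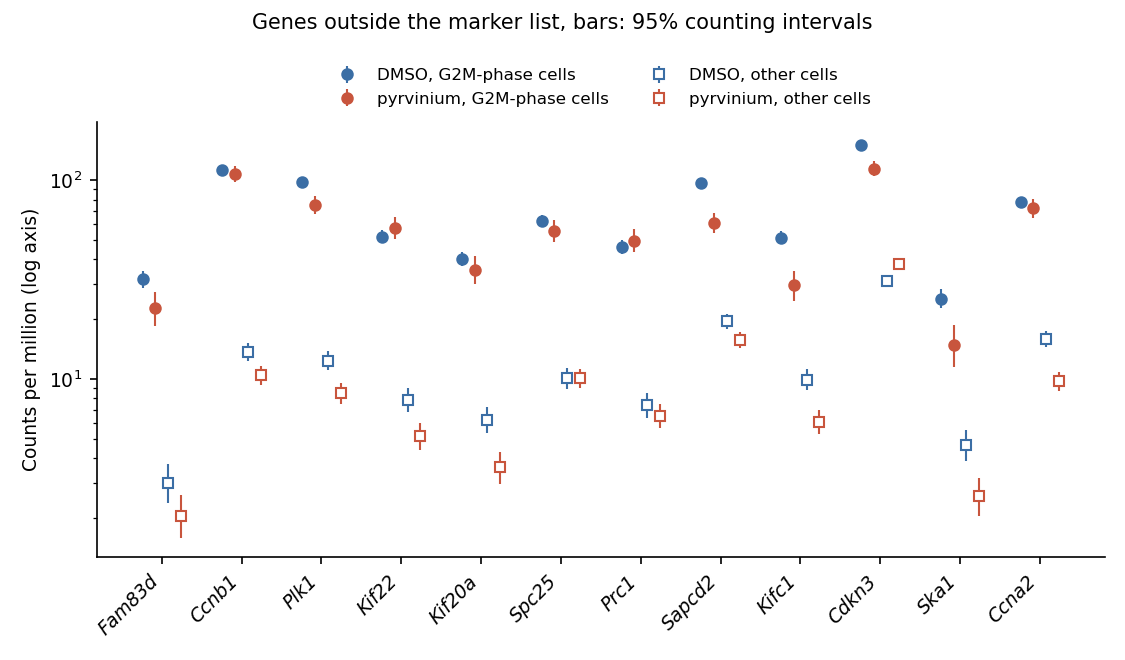
Levels in CPM (log axis) of the 12 genes outside the marker list with the highest ratio of DMSO G2M-phase cells over other DMSO cells, in order of rank from left to right. Filled circles are sums of G2M-phase cells, open squares sums of other cells, blue DMSO, red pyrvinium, and bars the 95% counting intervals. For all 12 genes both filled circles lie above both open squares.

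The promoters of these genes are shown because the genes stand high together and because the CHR element and the CCAAT box are the known marks of late cell cycle promoters. RefSeq, build GRCm38.p6, held an entry for 9 of the 12 genes, and 8 of the 9 had CCAAT and 3 had TTTGAA, read on both strands, in the 250 bases before the first listed start. Those 3 (Fam83d, Kif22 and Cdkn3) and Ccnb1 are printed 5′ to 3′ along the gene, with the motifs of either strand in capitals. A CHR element on the opposite strand reads as TTCAAA, and a CCAAT box there reads as ATTGG.
Fam83d, chr2:158767849-158768098, plus strand: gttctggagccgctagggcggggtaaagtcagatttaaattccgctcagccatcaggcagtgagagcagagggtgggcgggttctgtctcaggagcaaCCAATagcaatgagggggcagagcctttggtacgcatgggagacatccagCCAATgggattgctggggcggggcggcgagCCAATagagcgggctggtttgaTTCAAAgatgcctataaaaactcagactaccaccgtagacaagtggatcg
Kif22, chr7:127042421-127042670, minus strand: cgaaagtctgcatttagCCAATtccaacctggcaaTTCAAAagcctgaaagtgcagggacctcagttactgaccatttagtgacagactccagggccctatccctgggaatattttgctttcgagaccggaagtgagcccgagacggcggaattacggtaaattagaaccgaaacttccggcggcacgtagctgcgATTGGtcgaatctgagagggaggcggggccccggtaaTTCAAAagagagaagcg
Cdkn3, chr14:46760291-46760540, plus strand: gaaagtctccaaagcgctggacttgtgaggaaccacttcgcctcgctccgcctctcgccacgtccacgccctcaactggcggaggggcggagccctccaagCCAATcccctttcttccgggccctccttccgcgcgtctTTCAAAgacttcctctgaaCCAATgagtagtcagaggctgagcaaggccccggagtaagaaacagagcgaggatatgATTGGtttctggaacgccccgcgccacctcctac
Ccnb1, chr13:100786487-100786736, minus strand: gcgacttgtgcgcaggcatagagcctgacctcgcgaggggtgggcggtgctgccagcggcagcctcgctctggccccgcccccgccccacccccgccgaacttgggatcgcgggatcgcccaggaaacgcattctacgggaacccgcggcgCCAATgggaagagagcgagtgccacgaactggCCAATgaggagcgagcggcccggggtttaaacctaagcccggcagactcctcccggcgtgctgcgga
Fam83d held 3 CCAAT and 1 TTTGAA, Kif22 held 2 and 2, Cdkn3 held 3 and 1, and Ccnb1 held 2 CCAAT and 0 TTTGAA. The motifs did not overlap one another in these windows. Only the letters TTTGAA were searched for the CHR element, so any other form of it would have been missed. Over the whole list of mitotic genes outside the markers, 76 of 95 had a promoter entry. TTTGAA was found in 25% of the 76 (exact binomial 95% interval 15.8 to 36.3), CCAAT in 59.2% (47.3 to 70.4) and both in 19.7% (11.5 to 30.5). Over all 27025 promoters of the table the shares were 16.3%, 34.5% and 5.73%. Over the genes tested between the DMSO groups, 77.3% of which had an entry, they were 11.2%, 36.8% and 4.51%. The list of mitotic genes was taken for the count only after the planned set was dropped. That set, all 410 genes called 2-fold or more higher, had entries for 309 (75.4%), judged too few for the check to count. In these 309, TTTGAA was found in 23.0%, CCAAT in 50.5% and both in 15.9%. The mitotic genes were listed by role, and the motifs are known marks of such promoters. The shares of that list therefore describe it and test nothing. A match is a description of letters and not of binding.

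The mitotic genes outside the marker list, 95 in 3 lists by role, stood high in the G2M-phase cells of both libraries. Over all 95, 83 were called higher and 0 lower with DMSO, at a median log2 ratio of 1.68, and 83 and 0 with pyrvinium, at 1.81. Of 13630 genes tested in the pyrvinium library, 1072 were called higher (7.87%) and 416 lower (3.05%), and the median over all genes was 0.05. Of 22 kinases, cyclins and regulators, 21 were called higher with DMSO. Ccnf, an F-box protein of G2, stood at 28.7 and 5.65 CPM in G2M-phase and other DMSO cells. Cdkn3, a phosphatase that removes the activating phosphate of Cdk2 and Cdk1, stood at 150 and 31.3 CPM.

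Kinetochore and centromere genes were called higher in 30 of 35 cases with DMSO. Spc25, a subunit of the Ndc80 complex that binds microtubules at the kinetochore, stood at 62.2 CPM in G2M-phase and 10.1 in other DMSO cells, and at 55.9 and 10.1 with pyrvinium. Ska1, of the complex that follows shortening microtubules, stood at 25.5 and 4.67 CPM with DMSO and 14.8 and 2.58 with pyrvinium. The checkpoint kinase Bub1b stood at 20.9 and 5.09 CPM with DMSO and 26.3 and 5.41 with pyrvinium, and Sgo1, the guardian of centromeric cohesion, at 20.8 and 4.23 and at 17.7 and 3.78. Each of these 4 genes was 3-fold or more higher in the G2M-phase cells of both libraries, while Knl1, the scaffold of the outer kinetochore, stood at 6.95 and 5.09 CPM with DMSO and at 18.3 and 18.4 with pyrvinium and was not called.

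Motor, spindle and cytokinesis genes had the highest median of the 3 lists, 1.89, with 32 of 38 called higher with DMSO. The chromosome-arm kinesin Kif22 stood at 52.0 CPM in G2M-phase and 7.89 in other DMSO cells, and at 57.6 and 5.17 with pyrvinium. Kif20a, a kinesin of the central spindle, stood at 40.3 and 6.25 CPM and at 35.6 and 3.60, and Prc1, which bundles the microtubules of the central spindle, at 46.2 and 7.40 and at 49.7 and 6.52. Aspm, a spindle pole protein, stood at 8.01 and 0.823 CPM with DMSO and 7.73 and 1.14 with pyrvinium. The minus-end kinesin Kifc1 stood at 51.4 and 9.95 CPM with DMSO and 29.6 and 6.09 with pyrvinium. In each of these 5 genes the ratio between the cell groups exceeded the ratio between the libraries within the G2M-phase cells.

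Genes that build the mitotic chromosome and the spindle material were also high, by smaller ratios. Of 16 condensin and cohesin genes, 8 were called higher with DMSO and 10 with pyrvinium, with 0 lower in each. Of 16 chromatin proteins, 9 and 10 were called higher, led in the DMSO library by the histone variant H2ax at 71.1 CPM in G2M-phase and 18.8 in other cells. Of 17 genes of the nuclear envelope and the Ran cycle, 10 were called higher in each library. Kpna2, an importin that binds spindle assembly factors, stood at 159 and 39.0 CPM with DMSO and 101 and 26.0 with pyrvinium. Of 11 tubulin and stathmin genes, 6 were called higher with DMSO and 8 with pyrvinium. Tuba1b stood at 822 and 308 CPM with DMSO and 494 and 181 with pyrvinium, and Stmn1, which destabilises microtubules, at 401 and 142 and at 241 and 60.1. In the list of the anaphase-promoting complex, 2 of 14 genes were called higher with DMSO, Ube2s (64.0 and 21.7 CPM) and Anapc15 (40.3 and 22.1).

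S phase genes were higher in the G2M-phase cells than in the other cells, by less than the mitotic genes. With DMSO 21 of 43 were called higher and 1 lower at a median log2 ratio of 0.57, and with pyrvinium 32 higher and 1 lower at 1.08. The gene called lower in both was Ung, a uracil glycosylase. Tyms, which makes thymidylate, stood at 215 CPM in G2M-phase and 85.0 in other DMSO cells, and at 117 and 42.5 with pyrvinium. Rrm1, a subunit of ribonucleotide reductase, stood at 90.5 and 37.7 CPM and at 75.3 and 21.5. Mcm5, of the replicative helicase, stood at 51.2 and 31.5 CPM with DMSO and 23.2 and 8.55 with pyrvinium, and the sliding clamp Pcna at 159 and 116 and at 121 and 65.0. The median of the list in the DMSO library depended on the threshold, at 0.12 with members from 60 per 10000 and 1.80 against other cells under 10 per 10000. With the threshold at 60, Mcm5 was no longer higher, at a log2 ratio of -0.01.

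Cut into steps of the marker level, the cells showed where these gene groups peak along the range. The mitotic genes outside the markers had medians per cell of 5.51, 7.74 and 16.9 per 10000 in DMSO cells with marker levels under 10, of 10 to 20 and of 20 to 40, and of 26.2, 33.2 and 44.8 in G2M-phase cells of 40 to 60, 60 to 80 and 80 or more. With pyrvinium the same steps gave 5.92, 8.27, 15.1, 24.4, 31.7 and 44.5. The 2 libraries were close at every step, with cell numbers from 434 down to 121 with DMSO and from 332 down to 21 with pyrvinium. S phase genes with DMSO stood at 3.92 in the lowest step, 14.7 at 20 to 40, 16.1 at 40 to 60 and 12.2 at 80 or more. With pyrvinium they stood at 3.31, 7.61, 8.54 and 11.8 at these steps. Pcna in DMSO cells stood at 60.6 CPM in the lowest step, at 190 at 40 to 60 and at 102 at 80 or more, while Ccnb1 stood at 4.22, 69.6 and 203 CPM. The upper end of the range thus held more mitotic and less S phase transcript in the DMSO library. The steps are of the same cells and the same libraries, and the mitotic genes follow the markers used for the steps.

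**Figure D3:**
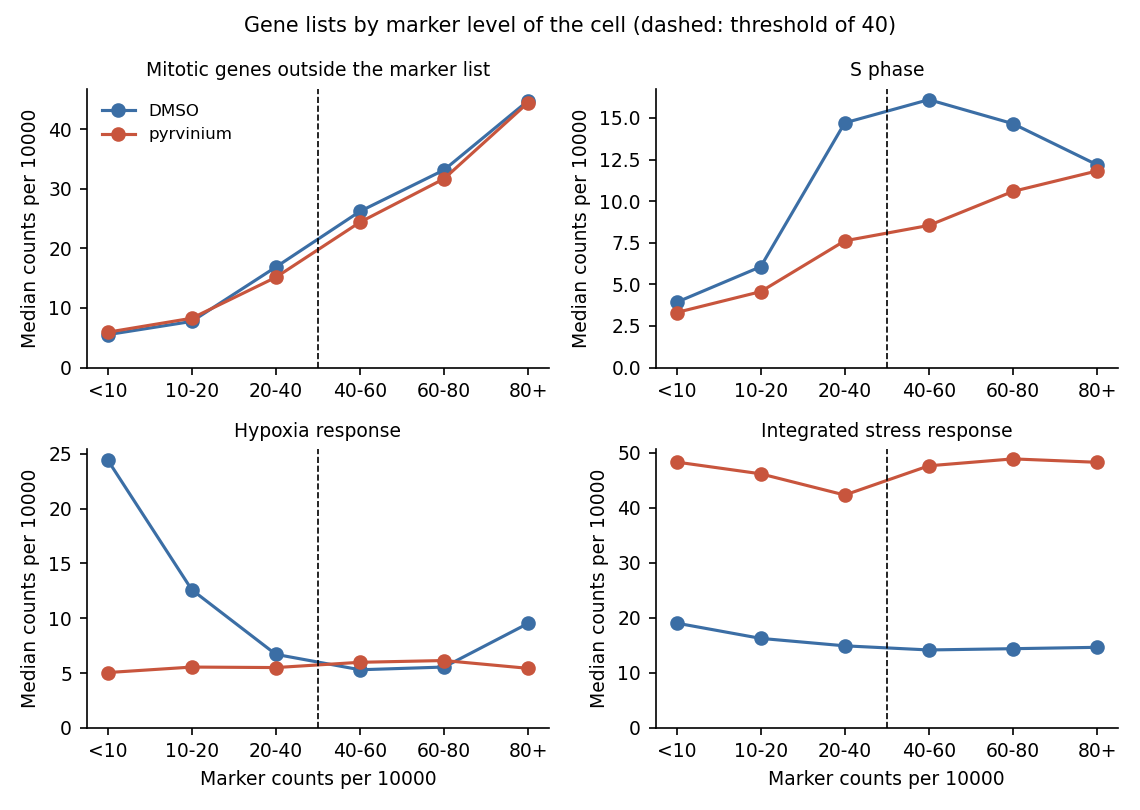
Median counts per 10000 of 4 gene lists (y axes) over cells grouped by marker counts per 10000 (x axis), with DMSO in blue, pyrvinium in red and the threshold of 40 dashed. The mitotic genes run together in both libraries up to 44.8 and 44.5, whereas the hypoxia genes with DMSO start at 24.4 in the lowest step and stand at 5.30 at 40 to 60.

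Among regulators of the cycle itself, differences were few. Of 13 cell cycle transcription factors 2 were called higher with DMSO, E2f7 and Rbl1. Of 14 G1 cyclins and Cdk inhibitors, 2 were called higher (Cdkn1c and Cdkn2c) and 3 lower (Ccnd2, Btg1 and Btg2) with DMSO. Ccnd2, a D-type cyclin, stood at 229 CPM in G2M-phase and 465 in other DMSO cells, and Cdkn2c, the Cdk4 and Cdk6 inhibitor p18, at 10.04 and 3.33. Replication-dependent histone genes gave a split picture. Of 41 tested, 26 were called higher and 5 lower at a median log2 ratio of 1.13, yet their summed level was 194 CPM in G2M-phase and 231 in other DMSO cells. H2ac18, at 7.48 and 31.1 CPM, was among those called lower. Over 18 alternatives to the counting and the choice of cells, the DMSO calls of Ung and Cdkn1c were lost in 4, that of Gpi1 in 3, those of Mcm5 and Rbl1 in 2 and those of Bnip3 and Anapc15 in 1, and that of E2f7 in 2 of 17. Alternatives that changed only the minimum count per gene could not lose a call.

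The lists with genes called lower in the G2M-phase cells with DMSO included those of the hypoxia response, glycolysis, the early response and squamous-like differentiation. These genes were a small part of the 1132 called lower in all, and the pyrvinium library gave other values for these lists. Ddit3 of the integrated stress response was also called lower with DMSO, at a log2 ratio of -1.34. The median of its list was -0.20 with DMSO and 0.26 with pyrvinium. Of 17 hypoxia genes, 12 were called lower and 0 higher with DMSO at a median log2 ratio of -0.83, against 0 and 0 with pyrvinium at 0.09. Ndrg1, a stress-responsive growth regulator, stood at 57.7 CPM in G2M-phase and 204 in other DMSO cells, and at 30.7 and 39.6 with pyrvinium. Bnip3, a mitophagy receptor, stood at 262 and 497 CPM with DMSO and 56.7 and 47.4 with pyrvinium. Of 16 glycolytic genes, 5 were called lower with DMSO, Hk1, Hk2, Gpi1, Aldoc and Pgk1. Aldoc, an aldolase, stood at 28.0 and 76.7 CPM with DMSO and at 24.7 and 26.8 with pyrvinium. Hypoxia genes per cell in the DMSO library had medians of 24.4 per 10000 at marker levels under 10, 5.30 at 40 to 60 and 9.53 at 80 or more. In the pyrvinium library every step lay between 5.04 and 6.14. The median per cell was 6.14 in DMSO G2M-phase cells, 5.84 and 5.32 in the G2M-phase and other pyrvinium cells, and 12.6 in the other DMSO cells. The upper quartile of the DMSO G2M-phase cells, 14.6, lay above the 7.57 and 6.97 of the pyrvinium groups, and so did the summed level, at 1083 CPM against 584 and 548.

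Immediate-early genes, the first transcribed after a growth signal, were called lower in 14 of 23 cases in the DMSO G2M-phase cells and higher in 0, at a median of -0.76. Fos stood at 335 CPM in G2M-phase and 569 in other DMSO cells, and at 34.0 and 36.1 with pyrvinium. The phosphatase Dusp1 stood at 35.6 and 83.9 CPM with DMSO and 4.20 and 4.67 with pyrvinium. Of 9 squamous-like genes, 6 were called lower with DMSO and 1 of 8, Cnfn, with pyrvinium. Sprr1a, a precursor of the cornified envelope, stood at 8.61 and 52.1 CPM with DMSO and 33.3 and 23.1 with pyrvinium, and 1 cell held 27% of its counts in the pyrvinium G2M-phase cells. Cnfn, cornifelin, stood at 26.7 and 114 CPM with DMSO and 17.9 and 33.5 with pyrvinium, with 48% of the counts of the pyrvinium G2M-phase cells in 1 cell. Krt19, a keratin of simple epithelium, stood at 1184 and 2493 CPM with DMSO and 671 and 939 with pyrvinium.

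Single genes that stood low in the DMSO G2M-phase cells included Nupr1, a stress-induced chromatin protein, at 254 CPM in G2M-phase and 1080 in other DMSO cells. With pyrvinium it stood at 763 and 1386. Cybrd1, a ferric reductase, stood at 33.8 and 143 CPM with DMSO and 9.94 and 20.9 with pyrvinium. Both genes were lower in the G2M-phase cells of both libraries, by 4.26-fold and 4.23-fold with DMSO and by 1.82-fold and 2.11-fold with pyrvinium.

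Over the 13290 genes tested in both libraries, the calls for G2M-phase against other cells were shared in part. Of genes called higher, 451 were called in both, 49.6% of the 909 with DMSO and 42.7% of the 1055 with pyrvinium. Of genes called lower, 144 were called in both, 13.5% of the 1066 with DMSO and 34.9% of the 413 with pyrvinium. Opposite calls were made for 4 of the genes called higher with DMSO and 17 of those called lower. The other pyrvinium cells were summed over 32517883 counts and the pyrvinium G2M-phase cells over 4528790, so calls in that library rest on the thinner sum.

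**Figure D4:**
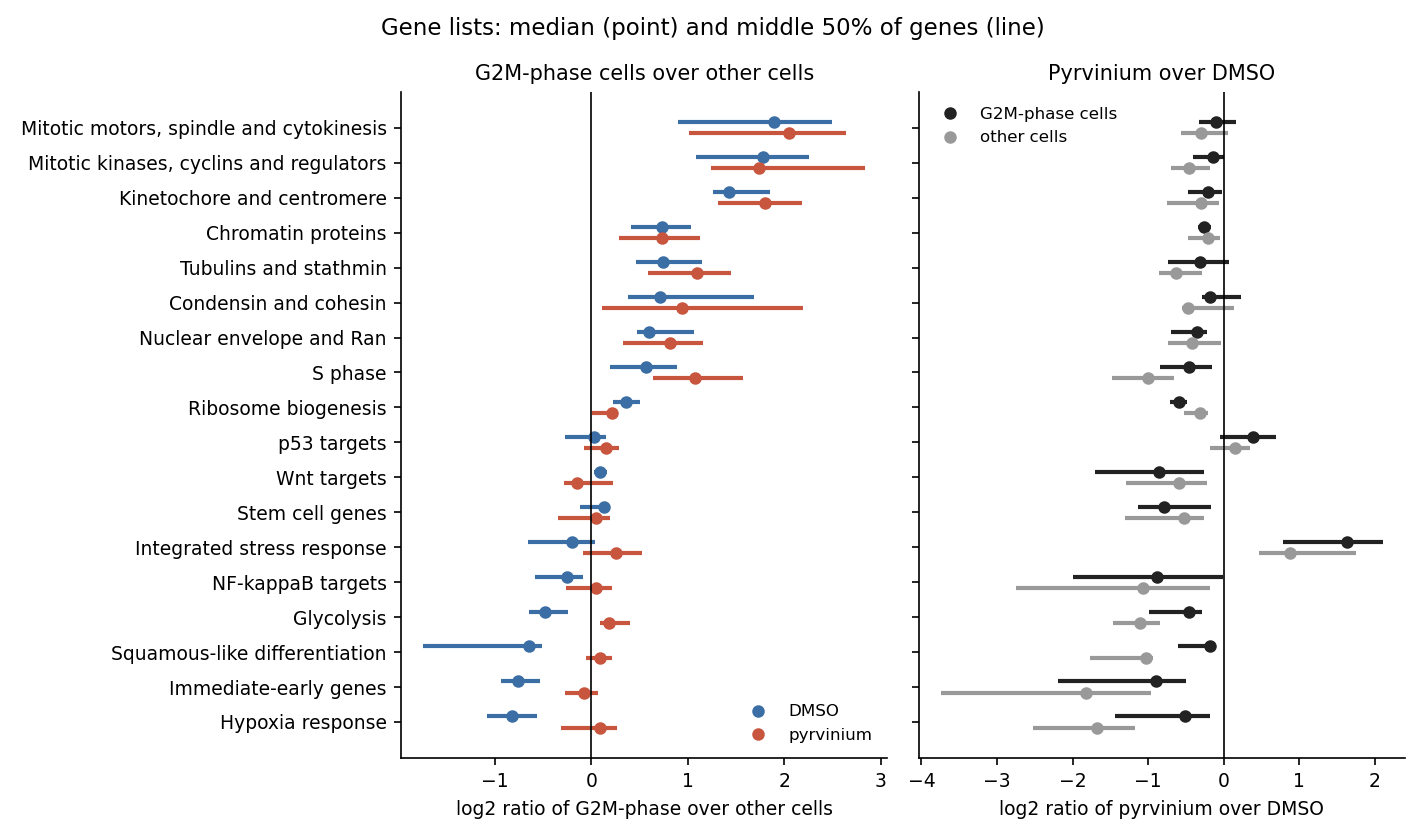
Median log2 ratio (point) and range of the middle 50% of genes (line) of each gene list, for G2M-phase over other cells (left, DMSO blue, pyrvinium red) and for pyrvinium over DMSO (right, G2M-phase cells black, other cells grey). The mitotic lists lie far to the right of 0 in both libraries on the left and near 0 on the right, and the hypoxia list stands at -0.83 with DMSO and 0.09 with pyrvinium on the left.

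Set against DMSO, the G2M-phase cells of the pyrvinium library had higher stress response genes and lower early response, Wnt target, hypoxia and S phase genes. Their mitotic transcripts lay near the DMSO level. Both groups were chosen at the same marker threshold and the mitotic genes follow the markers, so that closeness describes the choice. Of 12093 genes tested between the G2M-phase cells of the 2 libraries, 1310 were called higher (10.8%) and 1588 lower (13.1%) with pyrvinium, and the median over all genes was -0.04. In the other cells 14829 genes were tested, with 1022 called higher (6.89%) and 2176 lower (14.7%) at a median of -0.08. The cells of both groups come from the same 2 libraries, so the 2 sets of ratios share whatever sets the libraries apart. The summed markers had to reach the same minimum in each G2M-phase cell of both libraries, and came to 6482 CPM with DMSO and 5881 with pyrvinium. Single markers had a median log2 ratio of -0.07, with 3 called higher (Smc4, Dlgap5 and Psrc1) and 4 lower (Birc5, Kif11, Ncapd2 and Kif23).

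Of the 95 mitotic genes outside the marker list, 80 were called neither way between the G2M-phase cells of the 2 libraries, 12 were called lower and 3 higher, at a median of -0.15. Because the rule set the same minimum marker level in both groups, these values describe the cells chosen and do not test an effect of the drug. Ccnb1 differed by 1.04-fold (0.94 to 1.16) and Prc1 by 1.07-fold (0.918 to 1.25). A 1.5-fold difference lay outside both counting intervals, but these hold no spread between cells or libraries and cannot exclude one between treatments. Called lower were Sapcd2, a polarity protein of the spindle, by 1.58-fold (1.39 to 1.81), Kifc1 by 1.74-fold (1.44 to 2.10), Ska1 by 1.72-fold (1.32 to 2.27) and Ccnf by 1.94-fold (1.49 to 2.55). Called higher were Knl1, by 2.64-fold (1.94 to 3.59), Mzt1, a subunit of the microtubule nucleation complex, at 58.3 against 36.5 CPM, and Sgo2a, at 11.3 against 6.95 CPM. Knl1 was called higher with pyrvinium in the other cells too, by 3.62-fold. Kpna2 was 1.58-fold lower (1.43 to 1.75), Lmnb1, the B-type lamin, 1.74-fold lower (1.42 to 2.15), and Tuba1b and Stmn1 each 1.66-fold lower (1.59 to 1.74 and 1.56 to 1.78). Over 18 alternatives the calls of Sgo2a were lost in 5, of Ska1 in 3, of Sapcd2, Mzt1 and Stmn1 in 2 and of Ccnf, Kpna2 and Tuba1b in 1. Those alternatives that changed only the other cells or the minimum count per gene could not lose a call between the G2M-phase cells.

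S phase genes were lower with pyrvinium within the G2M-phase cells, with 18 of 43 called lower and 0 higher at a median of -0.45. Fen1, the flap endonuclease of lagging strand synthesis, stood at 75.9 CPM with DMSO and 24.95 with pyrvinium, 3.04-fold lower (2.502 to 3.73). Mcm5 was 2.21-fold lower (1.80 to 2.74) and Tyms 1.84-fold lower (1.68 to 2.03). In the other cells 34 of 43 were called lower at a median of -1.001. Among G1 regulators, 3 were called higher (Cdkn1a, Cdkn2b and Btg1) and 4 lower (Ccne1, Cdkn1c, Cdkn2c and Cdk4). The Cdk inhibitor Cdkn1a, p21, stood at 728 CPM in the DMSO and 1268 in the pyrvinium G2M-phase cells, 1.74-fold higher (1.69 to 1.80), against 894 and 1058 in the other cells. Along the marker steps it stood between 674 and 1057 CPM with DMSO, and with pyrvinium at 1037 in the lowest and 1503 in the highest step. Cdkn2b, p15, stood at 16 and 57.9 CPM, 3.61-fold higher (3.003 to 4.35). Over 18 alternatives the call of Cdkn2c was lost in 5, those of Ccne1 and Mcm5 in 2 and that of Tyms in 1, and that of Cdkn1c in 2 of 17.

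Genes of the integrated stress response, in which the transcription factors Atf4 and Ddit3 raise amino acid supply genes when translation is curbed, were mostly higher with pyrvinium. Of 28, 23 were called higher and 1 lower with pyrvinium in the G2M-phase cells at a median of 1.64, and 18 and 2 in the other cells at 0.88. Ddit3 stood at 19.3 CPM in the DMSO and 291 in the pyrvinium G2M-phase cells, 15.1-fold higher (13.2 to 17.3), and at 48.8 and 314 CPM in the other cells. The pseudokinase Trib3 stood at 17.0 and 137 CPM, 8.08-fold higher (6.93 to 9.46), against 27.0 and 109 in the other cells. Cth, which makes cysteine from cystathionine, stood at 24.7 and 214 CPM, 8.66-fold higher (7.63 to 9.84), against 27.8 and 126. The cystine transporter Slc7a11 stood at 18.2 and 119 CPM, 6.54-fold higher (5.61 to 7.64), against 28.7 and 100.4. These 4 genes started lower or alike in the DMSO G2M-phase cells and were alike or higher in the pyrvinium ones. The gene called lower was Atf3, at 102 and 21.2 CPM, which is also an early response gene. Per cell the list had a median of 14.3 per 10000 in DMSO and 48.1 in pyrvinium G2M-phase cells, and 16.4 and 47.1 in the other cells. This median varied little with the marker level, from 14.1 to 19.0 with DMSO and from 42.3 to 48.9 with pyrvinium. The summed list differed more with DMSO, at 1745 CPM in G2M-phase and 2710 in other cells, against 5223 and 5010 with pyrvinium. Ddit3 in DMSO cells stood at 94.2 CPM in the lowest step, 13.1 at 40 to 60 and 36.4 at 80 or more. With pyrvinium it lay between 261 and 360 CPM at every step.

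Other genes called higher with pyrvinium included Gdf15, Dusp4 and Lcn2. Gdf15, a stress cytokine, stood at 90.6 CPM in the DMSO and 723 in the pyrvinium G2M-phase cells, 7.98-fold higher (7.47 to 8.53). Dusp4, a phosphatase of MAP kinases, stood at 8.99 and 80.6 CPM, 8.97-fold higher (7.27 to 11.1). Both were also high in the other pyrvinium cells, at 745 and 103 CPM. Lcn2, an iron-scavenging lipocalin, stood at 1.06 and 25.4 CPM in the G2M-phase cells, with 34% of the pyrvinium counts in 1 cell, and at 4.86 and 11.9 in the other cells. Of 9 interferon response genes, 5 were called higher (Ifi27, Irf7, Oas1a, Bst2 and Irf9). Bst2, tetherin, stood at 152 and 292 CPM, and Irf7, a transcription factor of the response, at 0.604 and 11.04. The call of Irf9 was lost in 9 of 17 alternatives.

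Early response genes were low with pyrvinium in the G2M-phase cells as in the others. Of 22, 14 were called lower and 0 higher at a median of -0.89, and 19 of 23 in the other cells at -1.83. Fos was 9.86-fold lower (8.39 to 11.7) and Egr1, at 92.7 and 10.6 CPM, 8.75-fold lower (6.56 to 11.9). Fosb, an AP-1 subunit, stood at 34.7 CPM in the DMSO and 0.662 in the pyrvinium G2M-phase cells, the latter from 3 counts, a ratio of 52.3-fold (17.8 to 255). Of 14 NF-kappaB targets, 8 were called lower and 1, Ccl20, higher, at a median of -0.88, and the call of Ccl20 was lost in 1 of 13 alternatives. Cxcl1, a chemokine, stood at 26.3 and 5.52 CPM. Tafa2, a secreted protein, stood at 31.3 and 1.32 CPM, 23.7-fold lower (10.8 to 64.8).

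Wnt targets and stem cell genes were lower with pyrvinium in the G2M-phase cells. Of 17 Wnt targets, 10 were called lower and 0 higher at a median of -0.86, and 8 of 18 in the other cells at -0.59. Sp5, a transcription factor and direct Wnt target, stood at 13.3 CPM in the DMSO and 1.77 in the pyrvinium G2M-phase cells, 7.52-fold lower (3.74 to 17.7). Rnf43, a ligase that removes Wnt receptors, stood at 96.8 and 22.7 CPM, 4.26-fold lower (3.48 to 5.26). Of 13 stem cell genes, 8 were called lower and 0 higher at a median of -0.80. Lgr5, the R-spondin receptor of stem cells, stood at 23.9 and 6.85 CPM, 3.49-fold lower (2.41 to 5.22), and Ascl2, a stem cell transcription factor, at 56.0 and 17.2, 3.25-fold lower (2.57 to 4.16). Smoc2, a secreted stem cell protein, stood at 13.1 and 1.32 CPM. The dysplastic stem cell surface genes Cd44 (114 and 105 CPM) and Prom1 (96.7 and 96.9 CPM) were not called, nor was Alcam, at 48.6 and 61.8 CPM. In the DMSO library Lgr5 stood at 24.1 CPM in both the lowest and the highest marker step.

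Hypoxia and glycolysis genes were lower with pyrvinium by less in the G2M-phase cells than in the others. Of 17 hypoxia genes, 8 were called lower and 0 higher in the G2M-phase cells at a median of -0.51, and 16 of 17 in the other cells at -1.68. Bnip3 was 4.61-fold lower (4.06 to 5.25) in the G2M-phase cells and 10.5-fold lower (9.96 to 11.1) in the others. Of 16 glycolytic genes, 7 were called lower and 2, Hk1 and Pfkm, higher. Eno1, enolase, stood at 1010 and 450 CPM, 2.25-fold lower (2.14 to 2.35). Slc16a3, which exports lactate, stood at 70.7 and 7.29 CPM, 9.70-fold lower (6.86 to 14.2). Ribosome biogenesis genes were called lower in 9 of 18 cases at a median of -0.59, and mitochondrially encoded genes in 8 of 13 at -0.70, with mt-Co1 called higher, at 190 and 487 CPM. Of 19 p53 targets, 6 were called higher and 0 lower at a median of 0.39. Among them Perp, a desmosomal protein, stood at 198 and 346 CPM and the cell death gene Pmaip1 at 22.8 and 34.9. Over 18 alternatives the call of Pmaip1 was lost in 8, that of Hk1 in 2 and that of Perp in 1.

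The difference between the pyrvinium ratio in the G2M-phase cells and that in the other cells was computed per gene from the 4 sums. Of 12086 genes, 996 had a higher ratio in the G2M-phase cells by at least 1.5-fold (8.24%) and 283 a lower one (2.34%), and the median over all genes was 0.07. The split of these calls, 77.9% higher, was 50.8% (600 and 580) with scaling by the median of ratios, which moved the median of all genes to -0.06, and 61.4% with the mean over cells. By group, 12 of 17 hypoxia genes, 12 of 28 stress response genes, 8 of 16 glycolytic genes, 9 of 22 early response genes and 18 of 43 S phase genes were called higher in this difference, with 0 lower in each. Their median differences were 0.89, 0.50, 0.56, 0.56 and 0.48. Against other cells under 10 marker counts per 10000 the S phase difference was -0.18 and the hypoxia difference 1.40. For the mitotic genes the median difference was 0.16, with 18 higher and 4 lower, and it was -0.13 against other cells under 10. For Wnt targets it was -0.14, with 2 of 17 called lower.

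**Figure D5:**
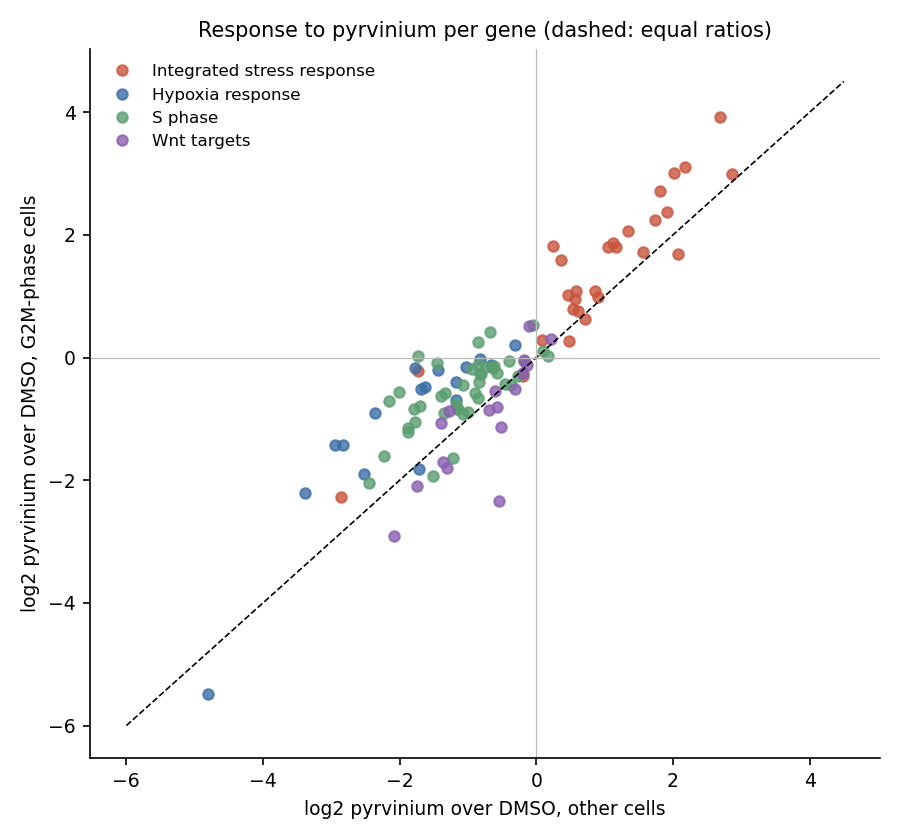
Log2 ratio of pyrvinium over DMSO in the other cells (x axis) and in the G2M-phase cells (y axis), 1 point per tested gene of 4 lists, with equal ratios dashed. Stress response genes (red) and hypoxia genes (blue) lie mostly above the dashed line, with medians of 1.64 against 0.88 and of -0.51 against -1.68, and Wnt targets (purple) lie close to it.

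Ero1a and Selenbp1 were among the genes with the highest differences. Ero1a, an oxidase of the endoplasmic reticulum, stood at 112 CPM in G2M-phase and 368 in other DMSO cells, and at 98.7 and 108 with pyrvinium, a log2 difference of 1.60 (1.43 to 1.76). Selenbp1, a selenium-binding oxidase, stood at 176 and 592 CPM with DMSO and 103 and 99.4 with pyrvinium, a difference of 1.80 (1.65 to 1.96). Both had 3 of the 4 sums close together and the other DMSO cells above them, although Selenbp1 was also 1.71-fold lower with pyrvinium in the G2M-phase cells, a call lost in 1 of 18 alternatives. Sprr1a, Myl7 and Sult1d1 were called higher with pyrvinium in the G2M-phase cells and lower in the others, and of Myl7 56% of the counts in the pyrvinium G2M-phase cells came from 1 cell. The call between the G2M-phase cells was lost in 5 of 18 alternatives for Myl7, with a change of sign in 3, and in 4 of 17 for Sult1d1. Among the lowest differences, Tomm5, of the mitochondrial import pore, stood at 508 and 355 CPM with DMSO and 215 and 265 with pyrvinium, at -0.81 (-0.92 to -0.71). Fdx2, a mitochondrial ferredoxin, stood at 27.4 and 25.1 CPM with DMSO and 12.6 and 25.9 with pyrvinium, at -1.16 (-1.59 to -0.73). Pycard, an inflammasome adaptor, stood at 18.4 and 17.7 CPM with DMSO and 13.2 and 32.4 with pyrvinium, at -1.34 (-1.77 to -0.90).

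Markers of goblet, chief and parietal cells were low in the G2M-phase cells, and counts of immune, fibroblast, endothelial and muscle markers came mostly from few genes. Surface mucous cell markers stood higher, at summed levels of 587 CPM with DMSO and 564 with pyrvinium, against 844 and 668 in the other cells. Tuft and enteroendocrine markers summed to 95.8 and 154 CPM, against 110 and 128. The part of any of these markers in the results was not tested. Of 8 immune markers 6 were detected with DMSO and 5 with pyrvinium, at summed levels of 66.8 and 40.4 CPM, against 79.8 and 48.96 in the other cells, nearly all from Cd14 and Cd68. Ptprc, the pan-leukocyte antigen, gave 6 and 2 counts in the G2M-phase cells, and Cd3e and Lyz2 gave 0. Fibroblast, endothelial and muscle markers summed to 50.1 and 59.2 CPM in the G2M-phase cells, against 41.9 and 60.4 in the other cells. In the G2M-phase cells 47.2 and 54.1 CPM of this were Cdh5, while the collagen Col1a1 gave 1 and 0 counts. The epithelial gene Epcam gave 377 and 594 CPM. The medians per cell of goblet and of chief and parietal cell markers were 0 in all 4 groups. Of the 5% of cells with the highest doublet score in each library, 24 were G2M-phase cells with DMSO and 6 with pyrvinium, which is 4.95% and 5.56% of those cells, against 5.01% and 4.96% of the others.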

How the data were processed

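Single-cell RNA sequencing of 2 organoid libraries was re-analysed. Per the labels' protocols, cells were captured with the PIPseq method and libraries made with its T2 kit, and per the submitters' processing notes Partek and GRCm39 were used. The deposited matrices hold whole-number counts per gene and barcode, not normalized and not reduced to cells. For the aligner, the counter, the annotation and molecular identifiers, the tool is not given in the sources used here. Doublets stayed in, except in 1 alternative.

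Barcodes with at least 9320 (DMSO) or 13100 (pyrvinium) counts, 1/10 of a library's 99th percentile over its 2000 largest barcodes, were taken as cells. Counts were summed over G2M-phase and other cells of each library and scaled to CPM, with exact Poisson 95% intervals. Log2 ratios have exact conditional binomial intervals, and differences of log2 ratios intervals from the 4 counts with 0.5 added to each. Genes needed 20 counts in the 2 sums compared. Cells were not treated as replicates. The members and the 36 gene lists were chosen with earlier results of these data known. The genes named were the 12 highest and 8 lowest ratios between DMSO groups, the 8 highest and 8 lowest between libraries, the 6 highest and 6 lowest differences (20 CPM or more, ranked by the interval bound nearest 0), up to 4 of each list and a fixed set. Some that the rule takes are not reported here. Ccl20, Cdkn1c, E2f7, Gpi1, Hspb1, Irf9, Pfkm, Sgo2a, Smc4, Dlgap5, Psrc1, Kif11, Ncapd2 and Kif23 lie outside it and were chosen after their values were seen. Where a symbol was shared by several genes, as for 27 symbols including Ddit3, the one of lowest Ensembl number stands for it. Paralogs such as Tuba1b may share reads. The computation was tested on simulated data in Python 3.11.15 with numpy 2.4.6, scipy 1.17.1 and scanpy 1.11.5.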

Additional observations from a re-analysis of the deposited data

Results flagged for a closer look

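Called changes with pyrvinium that ran in opposite directions in the G2M-phase and in the other cells were found for 5 of the genes named. The genes named include those ranked by this difference, and the share of such genes over all genes tested is not given here. The number therefore does not show whether opposite changes were common or rare. With 1 library per treatment the differences were not tested. Sprr1a was 3.87-fold higher with pyrvinium in the G2M-phase cells and 2.26-fold lower in the others, a log2 difference of 3.13 (95% counting interval 2.76 to 3.50). Myl7, a myosin light chain, was 2.496-fold higher and 3.50-fold lower, a difference of 3.13 (2.64 to 3.62), and 1 cell held 55.7% of its counts in the pyrvinium G2M-phase cells. Its call in the G2M-phase cells was lost in 5 of 18 alternatives and turned sign in 3, at -0.15, -0.35 and -0.32. Sult1d1, a sulfotransferase, was 2.21-fold higher and 1.69-fold lower, a difference of 1.90 (1.28 to 2.52), and its call in the G2M-phase cells was lost in 4 of 17. Pmaip1 was 1.53-fold higher and 1.83-fold lower, a difference of 1.48 (1.18 to 1.79), and its call was lost in 8 of 18. In these 4 genes the level was highest in the other DMSO cells and lowest in the DMSO G2M-phase cells of the 4 groups, although for Pmaip1 the lowest level, 22.8 CPM, was close to the 22.9 of the other pyrvinium cells. Cdkn2c went the other way, 1.62-fold lower and 1.66-fold higher, a difference of -1.41 (-2.10 to -0.72), on levels of 10.04 CPM or less, with its call in the G2M-phase cells lost in 5 of 18.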

How the results depend on the processing

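The main results gave 270 values under 17 other settings of the analysis and 1 chosen after seeing the data (without the top cell of each gene). Of these, 243 stayed and 27 moved. A share stayed if within the main interval, a count if within 1.5 times the main value. A list median stayed if between the medians of its genes' interval bounds, which are not an interval of that median. Ratios between the libraries within the G2M-phase cells could not move against other cells under 10. Ratios of single genes could not move with another minimum count per gene. Counts were compared by size only. At a threshold of 60, 409 of 859 genes with a higher pyrvinium ratio in the G2M-phase cells were also called in the main results. With the higher count minimum in both libraries, 911 of 1010 were. With a marker threshold of 30 the shares of G2M-phase cells were 38.0% with DMSO and 18.3% with pyrvinium, with 60 they were 16.7% and 5.85%, with the markers at odd places 37.6% and 16.4%, with those at even places 17.9% and 7.96%, and with a minimum of 3000 counts 25.6% with DMSO. The S phase median of G2M-phase over other DMSO cells was 0.81 at 30, 0.12 at 60, 0.20 with the markers at even places and 1.80 against other cells under 10, where the mitotic median was 3.09 and 2254 genes were called higher. The glycolysis median of pyrvinium over DMSO was -0.58 at 30, -0.63 at 60, -0.55 with thinned cells, -0.54 with the markers at odd places, -0.61 in cells of at most 40000 counts, -0.40 in members of 40 to 80, -0.60 for the mean over cells and -0.37 after subtracting 10% free RNA. Genes with a lower pyrvinium ratio in the G2M-phase cells numbered 923 against other cells under 10, 580 with scaling by the median of ratios (600 higher) and 570 for the mean over cells. Single values changed sign. With a threshold of 60, Ccne1 and Myl7 between libraries were at 0.11 and -0.15, Mcm5 between DMSO groups at -0.011, and the differences of Cnfn and Ifi27 at -0.81 and -0.37. With the markers at even places Myl7 was at -0.35 and Cnfn at -0.98, and in cells of at most 40000 counts at -0.32 and -0.57. Against other cells under 10, the Mcm5 difference was -0.45 and Ung between DMSO groups 0.49. No paired analysis was possible because each treatment has 1 library. The 108 pyrvinium G2M-phase cells limit the precision for low genes, and the cause of these changes was not tested.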

Other observations

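Some groups not described above showed little or mixed difference in the G2M-phase cells. Of 81 ribosomal protein genes, 0 were called in either direction in any of the comparisons, with medians between -0.09 and 0.26. Heat shock chaperones split, with Hspa1a, Hspa1b and Hspb1 called higher and Hspa8 and Dnajb1 lower with pyrvinium, of 12 tested, and the call of Hspb1 was lost in 5 of 18 alternatives. Hspa8, the constitutive Hsp70, stood at 1276 and 700 CPM in the G2M-phase cells and at 1023 and 579 in the others. Hspa1a and Hspa1b, inducible Hsp70 genes that are near copies and may share reads, stood at 5.82 and 21.0 CPM and at 11.8 and 25.6. Of 10 genes of mucous neck and metaplastic cells, 6 were called lower with pyrvinium in the G2M-phase cells and 1, Tff2, higher, a call lost in 9 of 18 alternatives. Clu, clusterin, stood at 3193 and 1484 CPM and Agr2, a disulfide isomerase of mucous cells, at 412 and 158.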
